A study of Mus musculus with 30 samples.

Results

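Eif5a encodes eIF5A, a translation factor that frees ribosomes stalled on difficult peptide stretches, among them runs of proline. It works only after one of its lysines has been turned into hypusine, and the polyamine spermidine supplies the group that is transferred. The 10 genes described here belong to that route. They are Eif5a and its paralogue Eif5a2, the hypusine-forming enzymes Dhps and Dohh, the polyamine synthesis genes Odc1, Amd1, Srm and Sms, and Sat1 and Oaz1, which lower polyamine levels. Eif5a was chosen because one of its probes had the lowest p of the whole array in the comparison of resistant with responder mice, and the other genes were added for their function. All probes whose platform symbol is one of the 10 names were used. There were 10 such probes for 7 genes, of 16593 genes named on an array of 25697 probes.

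Polyamines matter in nervous tissue because they block inwardly rectifying potassium channels and calcium-permeable AMPA receptors from inside the cell and act on NMDA receptors. Ornithine decarboxylase, the product of Odc1, makes putrescine, the first polyamine of the pathway. Spermidine synthase (Srm) and spermine synthase (Sms) extend it with groups that S-adenosylmethionine decarboxylase (Amd1) provides. Sat1 acetylates spermidine and spermine for export or breakdown. Oaz1 encodes antizyme, which binds ornithine decarboxylase and delivers it to the proteasome, and whose synthesis rises with polyamines through ribosomal frameshifting. Dhps attaches the spermidine-derived group to eIF5A and Dohh hydroxylates it.

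The study used hippocampi of adult males (12 weeks) of the NMRI stock, whose mice are outbred. All had been stimulated in the 6 Hz seizure test to learn whether phenytoin, a sodium channel blocker, protected them. The resistant group held 15 mice labelled as resistant to phenytoin and the responder group 15 mice labelled as responders, with 1 bead array per mouse, and the responders served as the control. The time between test and dissection is not given in the sources used here. Since the groups are defined by a seizure outcome, seizures in the test and resistance cannot be told apart, and in bulk hippocampal RNA fewer cells of a type and less RNA per cell cannot be told apart either. Between 12330 and 13223 probes were detected per array, and 12588 probes that were detected on at least 15 arrays were kept. Markers of excitatory neurons (6 of 8, with Prox1 of dentate granule cells among them) and of inhibitory neurons (7 of 8) were among the kept probes. Mean choroid plexus signal, over 10 markers, ran from 5.36 to 9.87 (log2) in resistant and from 5.86 to 10.59 in responder mice, and all 10 markers lay lower in the resistant group, by a median log2 difference of -0.89. None of these 10 had an unadjusted limma p under 0.05 (the smallest was 0.0697). Of 10 oligodendrocyte markers, 9 lay higher in the resistant group, by a median of 0.15 over the list. Only Ugt8a among them had an unadjusted limma p under 0.05 (p = 0.00072, adjusted p = 0.31), beside 7.55% of all kept probes. Of 6 ependymal markers, 5 lay lower and 1, Foxj1, higher in the resistant group, by a median of -0.25 over the list. Tekt1 alone of these had an unadjusted limma p under 0.05 (p = 0.0285, adjusted p = 0.631), beside the same 7.55%.

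Of the 10 probes, 8 were kept, for Eif5a (2 probes), Srm (3 probes), Odc1, Sat1 and Oaz1, and each of these was detected on all 30 arrays. The Eif5a2 probe was detected on 2 arrays, 1 of each group, and the Sms probe on 0 of 30, so neither was tested. No probe carried the symbol Dhps, Dohh or Amd1. The hypusine-forming enzymes were thus not measured, and any relation of Eif5a with them was not analysed here. A probe for Amd2, a close relative for which the RefSeq table also lists Amd1 as a synonym, was kept and is given beside the members.

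The upstream sequence of Eif5a is shown because both probes carry the same RefSeq transcript accession while the gene has 6 annotated starts, and those of Odc1 and Oaz1 because these genes form the member pair with the highest correlation between mice (below). Each is the 250 bases before a start, from RefSeq on build GRCm38.p6, 5′ to 3′ on the gene's strand. The Eif5a window is chr11:69921387-69921636 on the minus strand, the Odc1 window chr12:17544623-17544872 and the Oaz1 window chr10:80826406-80826655, both on the plus strand. Capitals mark CACGTG, the E-box bound by Myc family factors, and GGGCGG, the GC box, which reads as CCGCCC where it lies on the other strand. Both strands were searched, and the marked motifs do not overlap.
Eif5a: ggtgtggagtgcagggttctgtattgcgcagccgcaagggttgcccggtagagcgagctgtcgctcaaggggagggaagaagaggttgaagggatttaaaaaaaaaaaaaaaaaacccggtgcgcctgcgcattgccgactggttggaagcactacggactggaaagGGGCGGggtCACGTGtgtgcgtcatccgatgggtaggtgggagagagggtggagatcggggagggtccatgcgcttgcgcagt
Odc1: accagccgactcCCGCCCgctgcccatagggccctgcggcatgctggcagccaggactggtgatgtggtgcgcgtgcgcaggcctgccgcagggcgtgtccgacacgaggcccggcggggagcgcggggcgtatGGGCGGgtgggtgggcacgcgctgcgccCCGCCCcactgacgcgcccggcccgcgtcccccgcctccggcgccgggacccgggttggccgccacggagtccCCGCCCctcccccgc
Oaz1: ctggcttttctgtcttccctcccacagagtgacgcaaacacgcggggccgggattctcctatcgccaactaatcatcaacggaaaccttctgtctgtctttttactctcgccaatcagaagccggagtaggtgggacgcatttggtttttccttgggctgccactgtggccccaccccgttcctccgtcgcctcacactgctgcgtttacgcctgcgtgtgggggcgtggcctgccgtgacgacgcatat

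The Eif5a window held 1 E-box, 74 bases before the start, and 1 GC box. The Odc1 window held 4 GC boxes and no E-box, and the Oaz1 window neither motif. Of the 6 Eif5a windows, which overlap in part, 3 contained CACGTG and 2 contained GGGCGG. The window shown is 1 of the 2 with GGGCGG, and some of the others held neither motif. Of the 9 members in the promoter table, which lacks Srm, CACGTG was found in a window of Eif5a, Eif5a2 and Sms. Sms had it in 1 of 2 windows, and Eif5a2 in its 1 window. A window with GGGCGG was found for Amd1, Dohh, Eif5a, Eif5a2, Odc1, Sat1 and Sms. These are counts of genes, some with several windows, and cannot be set against a share of windows. Over all 32851 windows of this length, 6.0% held CACGTG and 32.7% held GGGCGG. These are matches of letters, and the arrays do not show which start was used.

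Of the probes measured, only the Eif5a probe ILMN_2678828 differed between the groups at the 5% false discovery threshold, and the other Eif5a probe did not follow it. On ILMN_2678828 the normalised log2 signal of the 15 resistant mice ran from 10.10 to 10.48, with a median of 10.29. That of the 15 responders ran from 10.30 to 10.63, with a median of 10.51. The ranges overlapped between 10.30 and 10.48, yet 8 resistant mice lay below every responder, 11 responders lay above every resistant mouse, and 0 of 15 resistant mice rose above the median of the responders. The log2 difference, resistant minus responder, was -0.22 (SE 0.04, 95% interval -0.30 to -0.14), or 0.860 times the responder level. Its limma adjusted p of 0.0395, the lowest of the array, is the value for which the gene was chosen and is given as a description. Just outside the threshold came a probe for Rbm3, a cold-induced RNA-binding protein (adjusted p = 0.0888), followed by Srrt and Sqstm1 (adjusted p = 0.125 each). Their log2 differences were -0.44, 0.19 and -0.16. One of 8 kept member probes passed, beside 0.00794% of the 12588 kept probes, that is 1 probe, and since the gene was chosen by this comparison nothing is read from that count. The adjusted p rose past the threshold with median scaling (-0.18, limma adjusted p = 0.263), without the filter (0.0759) and with the choroid plexus mean as a covariate (-0.22, 0.0815). It also did so when any one of 15 mice was left out (0.0611 to 0.101), namely resistant replicates 3, 5, 6, 10, 11, 13, 14 and 15 and responder replicates 1, 3, 4, 5, 9, 14 and 15, with log2 differences from -0.22 to -0.20.

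On ILMN_2686044 the resistant mice ran from 10.70 to 11.01 and the responders from 10.68 to 10.93, and both medians were 10.83. The groups overlapped almost completely, with 0 resistant mice below the lowest responder. The log2 difference was 0.00 (SE 0.03, 95% interval -0.07 to 0.07, limma adjusted p = 0.995), so the interval holds no difference as large as the one seen on ILMN_2678828. The gap between the probes within one mouse restates the contrast of ILMN_2678828, since ILMN_2686044 had a log2 difference of 0.00. ILMN_2678828 minus ILMN_2686044 was -0.53 ± 0.11 (log2, SD, n = 15) in resistant mice, from -0.67 to -0.33. In responders it was -0.31 ± 0.11 (SD, n = 15), from -0.49 to -0.17. Of the resistant mice, 9 had a gap below that of every responder, and 6 lay within the responder range. This gap contains the probe by which the gene was chosen and was not tested.

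**Figure D1:**
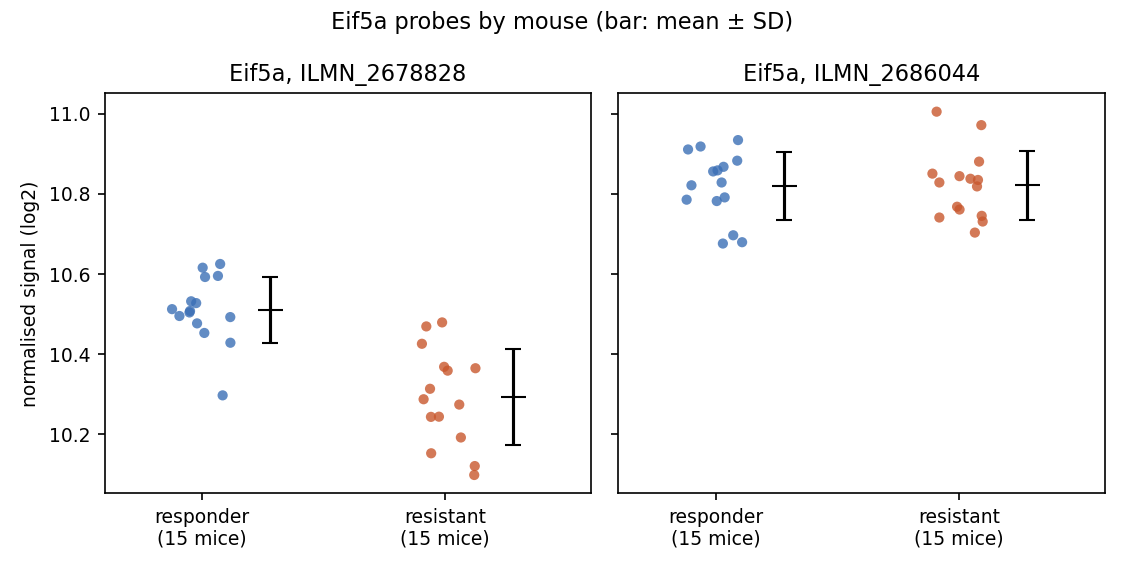
Normalised log2 signal of the 2 Eif5a probes in each mouse (points), by group, with the group mean and SD as bars. On ILMN_2678828 8 of 15 resistant mice lie under every responder, with medians of 10.29 and 10.51, while on ILMN_2686044 the groups share a median of 10.83.

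The labels carry a sample number from 1 to 30 that alternates between the groups, with no word on what it orders, and the contrast was also fitted in numbers 1 to 16 and 17 to 30 apart. For ILMN_2678828 resistant minus responder came to -0.15 (log2, SE 0.06, limma adjusted p = 0.768) in the first part and -0.30 (SE 0.05, limma adjusted p = 0.0768) in the second. For ILMN_2686044 it was 0.06 (SE 0.05) and -0.07 (SE 0.05), with opposite signs. The change in the group difference between the parts was -0.15 for ILMN_2678828 (p = 0.0632) and -0.13 for ILMN_2686044 (p = 0.0417), both with a limma adjusted p of 0.999. Over all kept probes, 0 (0%) passed the adjusted threshold of this test, and 553 (4.39%) had an unadjusted p under 0.05. Over the probes of Odc1, Srm, Sat1 and Oaz1, the smallest p of this test was 0.299.

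None of the polyamine genes passed the threshold, and their differences were small. Over the 7 kept member probes other than ILMN_2678828, 4 lay lower and 3 higher in resistant mice, and 0 had an unadjusted p under 0.05 (the smallest was 0.15), beside 7.55% of all kept probes. The lowest bound of any of their 95% intervals was -0.19 and the highest 0.15, which limits the differences these arrays allow.

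Odc1, the entry enzyme of polyamine synthesis, ran from 10.05 to 10.42 (normalised log2 signal, median 10.25) in resistant and from 10.11 to 10.50 (median 10.30) in responder mice. The groups overlapped over most of their range, with 1 resistant mouse below and 3 responders above the other group. The log2 difference was -0.05 (SE 0.04, 95% interval -0.14 to 0.03, limma adjusted p = 0.816).

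Srm, which makes spermidine, the donor for hypusine, was read by 3 probes. ILMN_2809611, the brightest, ran from 10.01 to 10.39 (median 10.21) in resistant and from 10.15 to 10.38 (median 10.28) in responder mice. For this probe 4 resistant mice lay below the lowest responder, and the log2 difference of -0.06 (SE 0.04) had a limma adjusted p of 0.778. ILMN_2630641 ran from 8.66 to 9.13 and from 8.80 to 9.29, and its groups differed by -0.08 (log2, SE 0.05, limma adjusted p = 0.799). ILMN_1225880 ran from 9.05 to 9.37 and from 9.03 to 9.35, and its groups differed by -0.01 (log2, SE 0.04, limma adjusted p = 0.983). All 3 estimates were below 0 without passing the test, and that of ILMN_1225880 turned to 0.03 with median scaling.

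Among the genes that lower polyamine levels, Sat1 ran from 9.44 to 9.92 (median 9.62) in resistant and from 9.38 to 9.91 (median 9.60) in responder mice, and the difference of the means was 0.02 (log2, SE 0.06, limma adjusted p = 0.957). Oaz1 ran from 11.46 to 12.06 (median 11.64) in resistant and from 11.47 to 11.89 (median 11.57) in responder mice. For Oaz1, 13 of 15 resistant mice lay above the median of the responders, and the log2 difference of 0.06 (SE 0.04, 95% interval -0.03 to 0.15) had a limma adjusted p of 0.816. The Amd2 probe ran from 7.63 to 8.72 and from 7.64 to 8.63, and its log2 difference of -0.13 had a wide 95% interval, from -0.34 to 0.08 (limma adjusted p = 0.818).

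**Figure D2:**
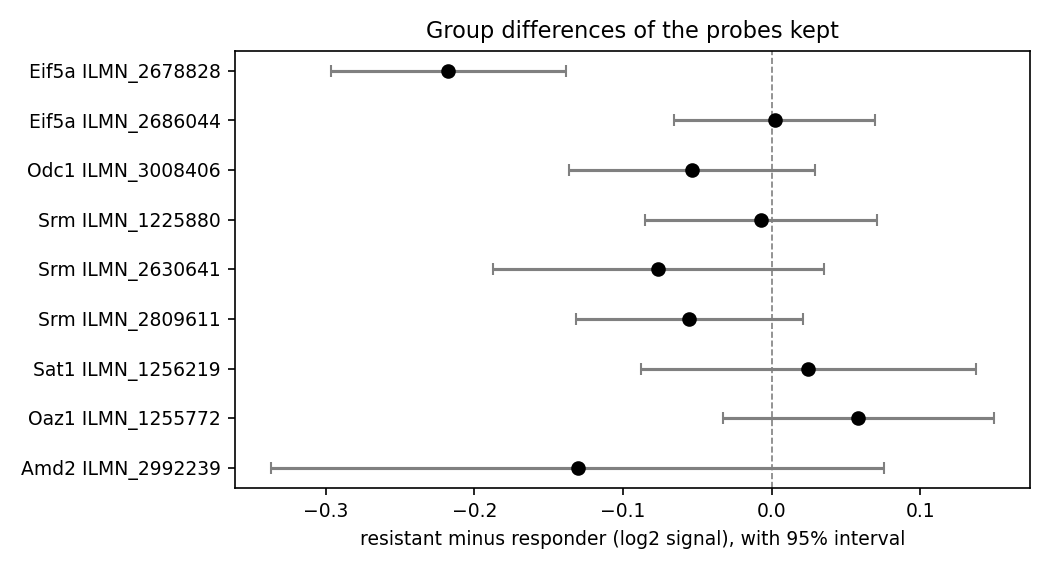
Log2 difference, resistant minus responder, of each kept probe of the members and of Amd2, with its 95% interval from the fit across all probes. The interval of Eif5a ILMN_2678828 runs from -0.30 to -0.14, and those of the others include 0.

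No neighbouring gene of the pathway passed the adjusted threshold either. Of 11 measured genes (21 listed) of polyamine turnover and transport other than the members, 0 had an unadjusted p under 0.05 in either direction, beside 4.25% of kept probes higher and 3.3% lower. The nearest were Oaz2, a second antizyme, at -0.06 (log2 difference, p = 0.0958) and Azin1, which relieves antizyme of ornithine decarboxylase, at 0.11 (p = 0.164). Of 9 measured genes (13 listed) that supply and recycle S-adenosylmethionine, 0 had an unadjusted p under 0.05. Ahcyl1 lay at -0.09 (p = 0.105) and Mtrr, which reactivates methionine synthase, at 0.15 (p = 0.125). The deacetylases Sirt2 and Hdac6, both reported to act on eIF5A, lay at 0.03 (p = 0.576) and -0.04 (p = 0.586), and the nuclear transport receptor Ipo13 at -0.04 (p = 0.328). The median log2 difference was 0.02 for the polyamine list, 0.04 for the S-adenosylmethionine list and -0.04 for the last 3 genes, beside 0.01 over all kept probes.

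Among other translation factors, 1 of 12 measured elongation and termination factors was lower and 0 higher at unadjusted p under 0.05. This was Etf1, the release factor that recognises stop codons, at -0.08 (p = 0.0286, limma adjusted p = 0.631). Eef2, which moves the ribosome along the message, lay at -0.08 (p = 0.185). Of 19 initiation factors, 1 was higher and 0 lower, the helicase Eif4a1 at 0.06 (p = 0.047, limma adjusted p = 0.657), with Eif4a2 at 0.06 (p = 0.0546) and Eif3c at -0.13 (p = 0.055). The medians were -0.02 and 0.00. Of all kept probes, 3.3% were lower and 4.25% higher at that p, and 7.55% in either direction. Each list's count rests on 1 gene, Etf1 or Eif4a1, so nothing is read from these shares.

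The question of whether either Eif5a probe varies with the polyamine enzymes was put to the deviations of mice of one group. The p that chose the gene also used the size of this spread on ILMN_2678828 (residual SD 0.10, at the 8.5th percentile of the kept probes), but not its relation to other probes. Each mouse's deviation from its group mean was taken, and deviations were correlated over the 30 mice with permutation within groups (two-sided, 100000 resamples). The family held 13 pairs, the 2 Eif5a probes with each other and with each of the 6 kept probes of Odc1, Srm, Sat1 and Oaz1, and 0 of 13 passed an adjusted p of 0.05 (0 also had an unadjusted p under it, by Pearson's r).

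The 2 Eif5a probes correlated with each other only moderately. Pearson's r was 0.37 (95% interval 0.00 to 0.65 by Fisher's transformation, permutation p = 0.0504, adjusted p = 0.263) and Spearman's rho 0.34 (permutation p = 0.0651). It was 0.52 among resistant and 0.16 among responder mice, a difference that was not tested, and 0.30 without the 2 mice farthest from the median of ILMN_2678828. Over the 3991 pairs of kept probes that name the same gene, the median within-group r was 0.30 and the quartiles 0.09 and 0.51, so the Eif5a pair lay near the middle, above 58.5% of them. By r with ILMN_2678828, the other Eif5a probe ranked 694 of 12587 kept probes, and by r with ILMN_2686044 it ranked 277. Of the kept probes, 10.0% and 3.89% had an r as far from 0.

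With Odc1, r was -0.06 for ILMN_2678828 (95% interval -0.42 to 0.31, permutation p = 0.731) and 0.12 for ILMN_2686044 (-0.26 to 0.46, permutation p = 0.542). The Srm probes did not give one answer. For ILMN_2678828, r was 0.35 with Srm ILMN_2630641 (permutation p = 0.0598, rho 0.39, permutation p = 0.0349, r of 0.30 without the 2 farthest mice), -0.34 with Srm ILMN_2809611 (permutation p = 0.081) and 0.08 with Srm ILMN_1225880 (permutation p = 0.671). The first 2 of these have opposite signs although they name one gene, and each had an adjusted p of 0.263. For ILMN_2686044, r was 0.23 with Srm ILMN_2630641 (permutation p = 0.229), -0.05 with Srm ILMN_2809611 (permutation p = 0.783) and -0.01 with Srm ILMN_1225880 (permutation p = 0.949). Srm ILMN_2630641 thus had a positive r with both Eif5a probes, neither past the threshold. With Sat1, r was -0.07 for ILMN_2678828 (permutation p = 0.706) and 0.02 for ILMN_2686044 (permutation p = 0.9).

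With Oaz1, r was -0.04 for ILMN_2678828 (permutation p = 0.838) and 0.34 for ILMN_2686044 (95% interval -0.03 to 0.63, permutation p = 0.0729, adjusted p = 0.263). The latter was 0.65 among the 15 resistant and 0.00 among the 15 responder mice, a difference that was not tested. The correlations with the Amd2 probe were 0.21 for ILMN_2678828 and -0.12 for ILMN_2686044, given as a description. The intervals are wide, and at 30 mice these data leave room for moderate correlations of either sign in most pairs.

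**Figure D3:**
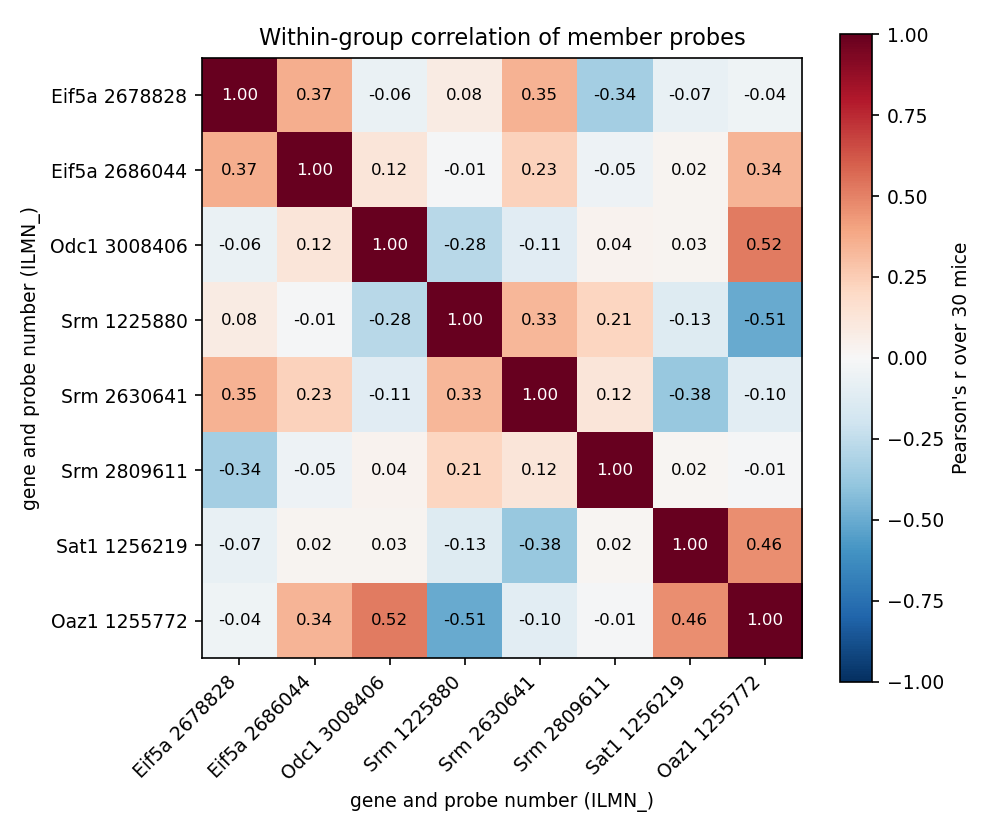
Pearson's r between the deviations of the 8 kept member probes from their group means, over 30 mice (colour and number). The rows of both Eif5a probes hold values between -0.34 and 0.37, and the values of largest size lie between Oaz1 and Odc1 (0.52), Srm ILMN_1225880 (-0.51) and Sat1 (0.46).

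This result rests on how the arrays are scaled. When arrays were scaled to a common median instead of quantile-normalised, r between the Eif5a probes was 0.68 (adjusted p = 0.00078), and 7 of the 13 pairs passed. These included Srm ILMN_1225880 with ILMN_2686044 at 0.52 (adjusted p = 0.015) and Srm ILMN_2809611 with ILMN_2686044 at 0.44 (adjusted p = 0.0401), both of which had been slightly negative, at -0.01 and -0.05. Under that scaling the Eif5a probes correlated with the array as a whole. The median r of ILMN_2678828 with all other kept probes rose from 0.00 to 0.17 and that of ILMN_2686044 from 0.01 to 0.19, with 72.3% and 75.5% of probes above 0. The part of this shared movement in the 7 pairs was not tested.

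**Figure D4:**
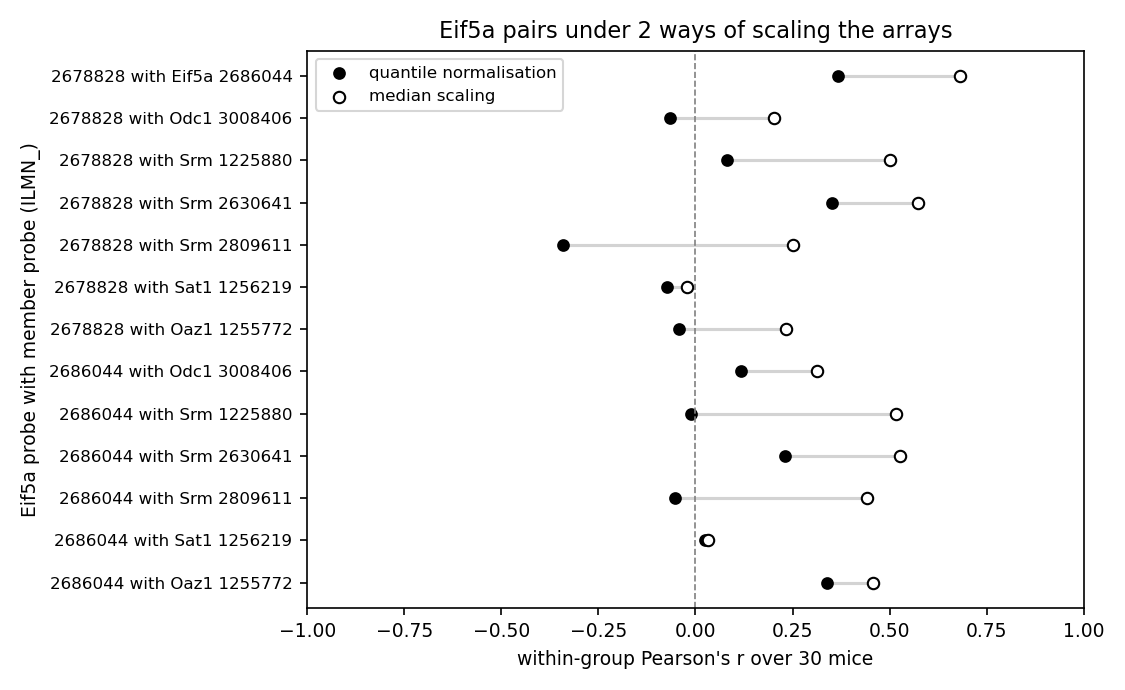
Within-group Pearson's r over 30 mice for the 13 pairs that hold an Eif5a probe, with quantile normalisation (filled) and median scaling (open). The pair of Eif5a probes moves from 0.37 to 0.68, and the pairs with Srm, Odc1 and Oaz1 move to the right while those with Sat1 stay near 0.

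Among kept probes that name another gene, those with deviations most like ILMN_2678828 over the 30 mice belonged to other functions. They were Ddx5, an RNA helicase, at r = 0.77, Uck1, a uridine-cytidine kinase, at 0.76, Sumo3, a ubiquitin-like modifier, at 0.73, Tsc22d1 at 0.72 and Hspa8, the constitutive Hsp70 chaperone, at 0.71. At the other end came Stk40 at -0.68, B3gat1 at -0.65, and Abca7, Arhgap22 and Prpf40b at -0.63, -0.63 and -0.62. In the group comparison Sumo3 lay at -0.25 (limma adjusted p = 0.31), Hspa8 at -0.11 (limma adjusted p = 0.681), Ddx5 at -0.05 (limma adjusted p = 0.947) and Stk40 at 0.22 (limma adjusted p = 0.565). These were picked for their r from the kept probes that name another gene, so their values are a description. The r values are those with quantile normalisation, and the nearest probes were not sought with median scaling. Over all 12587 other kept probes the median size of r was 0.15.

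The nearest probes of ILMN_2686044, picked in the same way, were different ones and lay less close. They were Spire1, an actin nucleator, at 0.63, Gfm1, a mitochondrial elongation factor, at 0.61, the splicing factor U2af2 at 0.59, Atic, an enzyme of purine synthesis, at 0.58 and Mettl4 at 0.56. Those with the lowest r were Rbks at -0.58, Rtraf at -0.57, and Colgalt2, Polr2i and Epb41l3 at -0.56, -0.56 and -0.55. No gene was named for both Eif5a probes in these lists, which hold for quantile normalisation only.

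Cell makeup and sample order were set against both Eif5a probes in the same way, with 9 marker means, the sample number and the number of detected probes, 22 relations in all. None passed an adjusted p of 0.05, and 1 had an unadjusted p under it, ILMN_2678828 with astrocyte markers (r = -0.42, permutation p = 0.0359, adjusted p = 0.668, rho -0.34 with permutation p = 0.0799, r of -0.39 without the 2 farthest mice). With median scaling the astrocyte value was 0.10, and 1 other relation passed, ILMN_2686044 with inhibitory neuron markers (r = 0.57, permutation p = 0.00206, adjusted p = 0.0453), beside 0.16 with quantile normalisation. With the choroid plexus mean, r was -0.04 for ILMN_2678828 (permutation p = 0.846) and -0.08 for ILMN_2686044 (permutation p = 0.658). With the sample number it was -0.22 (permutation p = 0.254) and 0.19 (permutation p = 0.325).

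Among the polyamine genes themselves, the pairs that passed all held antizyme. Of 12 pairs of kept probes of different genes, 3 passed an adjusted p of 0.05, and all 3 held Oaz1. Oaz1 correlated with Odc1, whose product antizyme binds, at r = 0.52 (95% interval 0.19 to 0.74, permutation p = 0.00326, adjusted p = 0.0274). It correlated with Srm ILMN_1225880 at -0.51 (-0.74 to -0.17, permutation p = 0.00456, adjusted p = 0.0274). With Sat1 it correlated at 0.46 (0.12 to 0.71, permutation p = 0.0106, adjusted p = 0.0424). For the Odc1 pair, 2.39% of kept probes had an r as far from 0 with Odc1 and 2.64% with Oaz1. These shares were 2.67% with Srm ILMN_1225880 and 3.19% with Oaz1 for the Srm pair. For the Sat1 pair they were 11.1% with Sat1 and 5.47% with Oaz1. Spearman's rho was lower in size, at 0.32 (permutation p = 0.0885), -0.37 (permutation p = 0.0488) and 0.40 (permutation p = 0.034), and with it 0 of 12 pairs passed.

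These pairs were singled out by their r over the same 30 mice, so the values by group and by sample number are a description. The sign of each pair was the same in both groups. With Odc1, r was 0.44 among resistant and 0.60 among responder mice, with Srm ILMN_1225880 -0.46 and -0.55, and with Sat1 0.46 and 0.47. Within sample numbers 1 to 16 and 17 to 30 they were 0.47 and 0.45 for Odc1, -0.32 and -0.64 for Srm and 0.45 and 0.67 for Sat1. Without the 2 mice farthest from the median of the other gene, r was 0.44 with Odc1, -0.37 with Srm ILMN_1225880 and 0.56 with Sat1. The other Srm probes gave -0.10 (ILMN_2630641) and -0.01 (ILMN_2809611) with Oaz1, so the Srm relation belonged to 1 of 3 probes. The 3 Srm probes correlated with one another at 0.33, 0.21 and 0.12.

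These 3 relations were weaker without the mice with the highest Oaz1 signal. They were resistant replicate 12, responder replicate 12 and responder replicate 6 (sample numbers 23, 24 and 12). Their Oaz1 signals were 12.06, 11.89 and 11.82 (log2), beside a median of 11.63 over all mice. Their arrays detected 12568, 12833 and 12872 probes, beside a median of 12872.5, and their choroid plexus means were 9.04, 10.32 and 9.53, beside 8.60. Leaving out any one of these mice left 0 of 12 pairs past the threshold, although r kept its sign and part of its size. With any single mouse of the 30 left out, r was at least 0.43 with Odc1, between -0.58 and -0.39 with Srm ILMN_1225880 and at least 0.35 with Sat1. Sat1 with Oaz1 also lost its call (r from 0.44 to 0.46, adjusted p from 0.0544 to 0.0773) without resistant replicate 2, 4 or 11 or responder replicate 1, 3, 8 or 9. The 3 mice highest in Oaz1 were left out together because each alone had ended the calls. A fall in r was built into that choice, so these values are a description. Without these 3 mice, r was 0.22 with Odc1, -0.14 with Srm ILMN_1225880 and 0.19 with Sat1 (adjusted p = 0.68 each). Median scaling also left 0 pairs, with r of 0.39, -0.08 and 0.35. So did the differences between same-numbered mice, with r of -0.0029 for Odc1 and 0.17 for Sat1, although the labels state no pairing. With the sample number removed from the deviations, Odc1 with Oaz1 fell just short of the threshold (r = 0.45, adjusted p = 0.0559). The part of depth, cell makeup or array scaling in these relations was not tested beyond this.

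**Figure D5:**
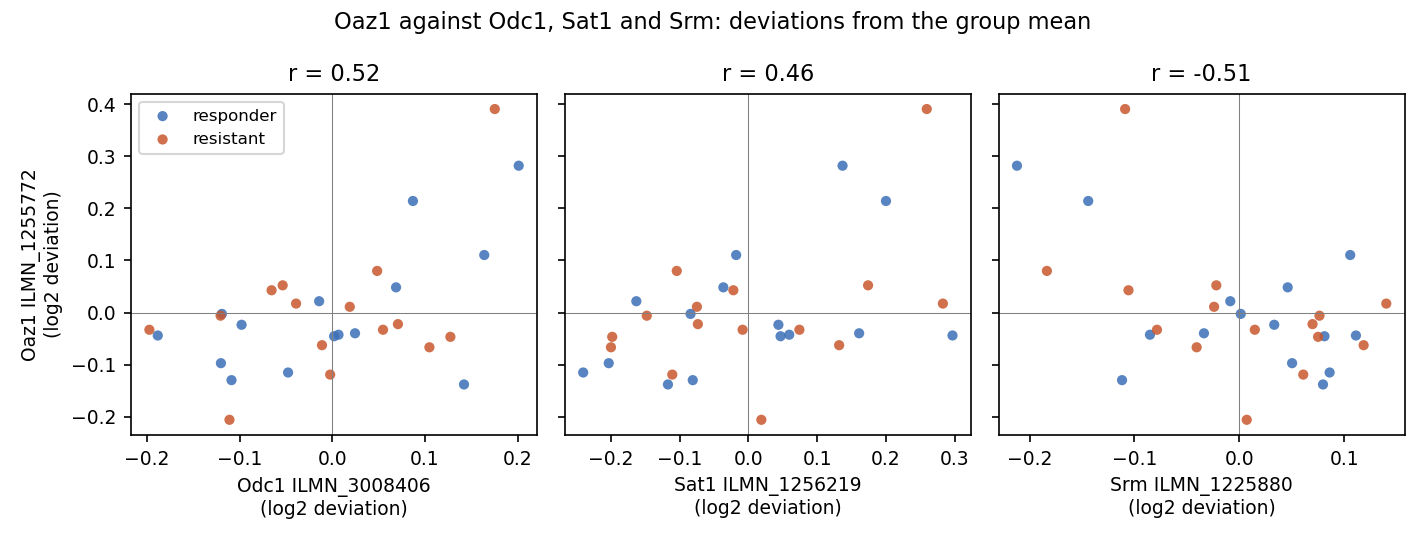
Deviations from the group mean (log2) of Oaz1 against those of Odc1, Sat1 and Srm ILMN_1225880 in 30 mice, coloured by group, with Pearson's r above each panel. The 3 mice highest in Oaz1 lie at the edge of each panel, and without them r is 0.22, 0.19 and -0.14.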

How the data were processed

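The authors deposited an unprocessed table that gives each array's log2 signals and each probe's detection p-values, per the file headers. They also deposited processed log2 values, which quantile normalisation of the first table matched to within 6e-09. The submitters' processing notes name lumi without its steps. The members and lists were chosen with earlier results of these data known.

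Signals were corrected and quantile-normalised by neqc (offset 16, limma 3.58.1, R 4.3.3). Probes with detection p under 0.05 on at least 15 of 30 arrays were kept. Groups were compared with lmFit and eBayes (trend on intensity, no covariate), adjusting over all kept probes by Benjamini-Hochberg. Gene lists used the brightest kept probe per gene. Correlations used deviations from group means, with 100000 permutations within groups (numpy 2.4.6), adjusted within each family. The tests were checked on simulated data. All member probes are named, with the 5 nearest probes of other named genes at each end of r per Eif5a probe, 3 runners-up and up to 4 genes per list. Labels call the mice separate samples, and replicate numbers do not state a pairing. The number of arrays limits precision. Alternatives covered background, scaling, filters, blocks, covariates and left-out mice. Probe sequences were not used here.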

Additional observations from a re-analysis of the deposited data

How the results depend on the processing

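The leave-one-out settings, the removal of 3 mice and the scalings of the marker and sample-number tests were added after seeing the data. The log2 difference of Eif5a ILMN_2678828 was negative in all 13 alternatives and passed the adjusted threshold in 7 (adjusted p from 0.0182 to 0.768). Of the 7, no background correction and the authors' processed values hold the same signals (-0.20, limma adjusted p = 0.0409 in both), so they are not separate checks. The difference did not pass with median scaling (-0.18), no filter (-0.22), the replicate block (-0.22, adjusted p = 0.0694), the choroid plexus covariate (-0.22) or within sample numbers 1 to 16 (-0.15) and 17 to 30 (-0.30). No filter tests more probes and the last settings fewer mice, and otherwise the cause was not tested. With single mice left out it ran from -0.23 to -0.20 and passed in 15 of 30, and that of ILMN_2686044 ran from -0.01 to 0.01.

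The number of probes past the threshold, 1, was 0 with no filter, the replicate block, the choroid plexus covariate and numbers 1 to 16, 2 with numbers 1 to 16 against 17 to 30 or runs of 8 sample numbers as a block, 3 with the sample number as a covariate or within numbers 17 to 30, and 0 to 2 with a mouse left out. Median scaling also gave 1, but there Eif5a ILMN_2678828 had a limma adjusted p of 0.263, so the probe was another one. The 3 probes within numbers 17 to 30 did not include it either (limma adjusted p = 0.0768). Without the filter 1485 instead of 951 probes had an unadjusted p under 0.05. With median scaling 80.1% of such probes were higher in resistant mice, against 56.3%. The labels do not say that same-numbered mice share a day or chip, and the numbers did not meet the criterion for pairing, an r over 0.1 in every pair. Their deviations correlated from -0.32 to 0.28, with a median of 0.11 and over 0.1 in 8 of 15 pairs. Of the resistant mice, 4 matched their own number best. The permutations within groups treated all mice as independent, and whether same-numbered mice are independent was not tested.

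Of the Eif5a pairs, 0 of 13 became 7 with median scaling, where the Eif5a probes correlated at 0.68 and 2 Srm pairs of ILMN_2686044 turned positive (0.52 and 0.44). Left-out mice gave 0 throughout and 0.26 to 0.42 for the Eif5a probes. The 3 Oaz1 pairs became 0 with median scaling, the replicate block (Odc1 at -0.0029, Srm at -0.28, Sat1 at 0.17), Spearman's rho or without 3 mice, and 0 to 3 with single mice left out. One marker relation passed with median scaling, ILMN_2686044 with inhibitory neurons (0.57), and the test of a changed difference between sample numbers gave 0 member probes in all 3 scalings. All other member differences stayed under the threshold in each of 13 alternatives.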
